A study of Mus musculus with 6 samples.

Results

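The GIMAP GTPases (GTPases of the immunity-associated protein family) were described in peripheral T-cell lymphomas (PTCL) of Dnmt3b+/- mice. The members were the rows of the deposited expression table whose symbol is Gimap1, Gimap3, Gimap4, Gimap5, Gimap6, Gimap7, Gimap8 or Gimap9. All 8 were found, each in 1 row, among 34245 genes. The study asked how a reduced dose of Dnmt3b, a DNA methyltransferase, bears on blood cancers of the mouse. RNA-seq (paired-end, 150 bp) was made from total RNA of 3 independent tumors, taken from the lymph nodes of terminally sick FVB/N mice in which 1 allele of Dnmt3b had been inactivated in the germline. Ages of the mice are not given in the labels. Bisulfite sequencing of 3 samples was not analysed here, nor were control CD8+ T cells or Dnmt3a-deficient tumors, so the values describe a group of 3 tumors and no test between groups was possible.

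GIMAP proteins are GTP-binding proteins found mainly in lymphocytes, and most of them sit on membranes of organelles such as the endoplasmic reticulum, lysosomes, lipid droplets and mitochondria. They are best known for keeping resting T cells alive: loss of Gimap5 in mice and rats causes a severe lack of peripheral T cells, and loss of Gimap1 depletes mature T and B cells. Members have been linked to proteins of the Bcl2 family, to Gsk3b and, for Gimap6, to the autophagy protein Gabarapl2.

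Levels are in FPKM, which divides the count of a gene by the kilobases of its merged exons and by the depth of its library. Library depths recovered from the table were 30726570, 18969988 and 20770928 reads for tumors 1, 2 and 3. Each GIMAP value rested on 943 to 17066 reads, and intervals made from these reads cover counting error only. The sources used here do not state whether a read pair counted as 1 or 2, and if mates were counted separately all these intervals are too narrow. Dnmt3b, the targeted gene (ENSMUSG00000027478), was at 0.975, 1.55 and 1.25 FPKM in tumors 1, 2 and 3, and this value does not separate its alleles. The labelled T-cell lymphoma was checked with 12 T-cell genes, all above 1 FPKM in mean. Their summed FPKM was 1498, 1039 and 1440 for tumors 1, 2 and 3, led by Cd8b1, Cd8a and Lck. Of the 12, 4 differed by at least 2-fold between tumors, near the 34.4% of all genes with a mean of at least 1 FPKM. Cd4 had the largest ratio of highest to lowest tumor in the list, with 28.4, 4.28 and 8.22 FPKM.

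The 8 genes lie side by side on chromosome 6 of mm10, within 124 kb, and all carry the loop that holds the phosphates of GTP. The coding stretch of this loop is shown because GTP binding depends on it, as in GTPases in general, and because the copies differ between members. A codon search for glycine, any 4 residues, glycine, lysine, and serine or threonine found 10 such stretches of 24 bases in the 8 genes, each within a coding exon. Of the members, 7 hold 1 stretch and Gimap8 holds 3. The bases were read from the GRCm38.p6 genome with GENCODE M21 gene models, on the strand of the gene. Capitals mark the codons of the fixed residues.
Gimap4, chr6:48690421-48690444, + strand: GGAaaaactggagcaGGAAAGAGT
Gimap3, chr6:48765887-48765910, - strand: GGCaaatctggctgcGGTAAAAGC
Gimap5, chr6:48752594-48752617, + strand: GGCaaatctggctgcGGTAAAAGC
Gimap1, chr6:48742552-48742575, + strand: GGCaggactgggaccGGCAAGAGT
Gimap6, chr6:48702750-48702773, - strand: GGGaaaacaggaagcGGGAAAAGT
Gimap7, chr6:48723524-48723547, + strand: GGGaaaacaggaagtGGAAAGAGC
Gimap9, chr6:48677523-48677546, + strand: GGGaagactggaaatGGGAAGAGT
Gimap8, chr6:48650256-48650279, + strand: GGGaaacagggcgcaGGCAAAAGT
Gimap8, chr6:48656119-48656142, + strand: GGGaagcgtggtgttGGGAAAAGT
Gimap8, chr6:48658746-48658769, + strand: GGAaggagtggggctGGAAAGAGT
Gimap3 and Gimap5 share the same 24 bases, and the 10 stretches hold 9 distinct sequences. Over the whole coding sequence, 89.6% of the bases of Gimap3 (903 bases without the stop codon) were identical in Gimap5 (924 bases). The next pair, Gimap7 and Gimap9, had 65.5%, and the 21 pairs of the 7 members other than Gimap8 had a median of 56.1%. Gimap8, with 2064 coding bases, was left out of these pairs because of its length.

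This likeness bears on what the reads can tell. Of the 50-base windows in the exons of Gimap3, 8.15% also occur in another GIMAP gene, and the share was 4.75% for Gimap5. All of the 190 windows that Gimap3 shares within the family have their copy in Gimap5 and the other way round. Reads with a mapping quality under 50 were left out by the authors, so the reads of such windows may be missing from both genes. The other 6 members share no 50-base window with another member. Within the exons of Gimap1, 36.2% of the windows occur in another gene, since 1107 of its 3073 exon bases lie opposite exons of the antisense gene Gimap1os. The sources used here do not state whether counting used the strand. Without it, reads on these 1107 bases cannot be assigned to Gimap1 or Gimap1os.

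The family was among the highly expressed genes of all 3 tumors. The 8 genes summed to 759, 689 and 901 FPKM for tumors 1, 2 and 3 (783 ± 108, SD, n = 3). All 8 were above 1 FPKM in every tumor, as were 28.4% of all genes in the table. Ranked by mean FPKM, Gimap4 stood at place 81 of 34245 genes and the lowest member, Gimap5, at place 2532. In a lymph node sample, fewer cells of a type and less RNA per cell cannot be told apart, so these are levels of the whole tissue. Directions between tumors are given for FPKM as deposited. Relative to the CD3 chains of T cells, none of the 8 genes was highest in tumor 3, against 5.66% of all genes with a mean of at least 1 FPKM.

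Gimap4, which binds GTP and is known to promote the death of T cells, had the highest level of the family. Tumors 1, 2 and 3 had 302, 307 and 412 FPKM (340 ± 61.8, SD, n = 3). The exact Poisson 95% interval was 298 to 307 for tumor 1, 301 to 313 for tumor 2 and 405 to 418 for tumor 3. Tumors 1 and 2 thus overlapped within counting error, and tumor 3 lay above both. Gimap4 (ENSMUSG00000054435) lies at chr6:48684549-48692060 on the + strand.

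Gimap3 and Gimap5 are a pair with nearly the same coding sequence and different levels. Gimap3 (ENSMUSG00000039264, chr6:48764464-48770851, - strand), described at mitochondria, was the gene with the next highest level, with 209.8, 148 and 186 FPKM for tumors 1, 2 and 3 (181 ± 31.1, SD, n = 3). Gimap5 (ENSMUSG00000043505, chr6:48746197-48754210, + strand), described at lysosomes and needed for T-cell survival, was the lowest member. Its values were 10.01, 16.05 and 14.5 FPKM (13.5 ± 3.14, SD, n = 3). The pair did not move together: Gimap3 was highest in tumor 1, where Gimap5 was lowest. The ratio of Gimap3 to Gimap5 within a library was 20.97, 9.24 and 12.9, in the same order, and a ratio within a library does not depend on how the libraries are scaled to each other. It does depend on the gene lengths: with the length of the longest protein-coding transcript, a choice made after seeing the data, it was 11.9, 5.23 and 7.27.

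Gimap1 (ENSMUSG00000090019, chr6:48739054-48743795, + strand), a membrane protein required for mature lymphocytes, was the most even member as deposited and with median-of-ratios factors. At the same sum of FPKM Gimap4 was more even, with a ratio of highest to lowest tumor of 1.24 against 1.36 for Gimap1, and relative to the CD3 chains Gimap7 was, with 1.17 against 1.57. Its FPKM was 28.2, 27.7 and 24.6 in tumors 1, 2 and 3 (26.8 ± 1.97, SD, n = 3). As deposited, the highest tumor of Gimap1 stood 1.15 times above the lowest, with an exact 95% interval of 1.08 to 1.22 from the reads. Gimap1os, on the opposite strand, was at 9.12, 8.20 and 9.52 FPKM.

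Gimap6, the partner of Gabarapl2 in autophagy, and Gimap8, the member with 3 loops, had similar levels. Gimap6 (ENSMUSG00000047867, chr6:48701582-48708225, - strand) had 73.2, 60.5 and 93.0 FPKM in tumors 1, 2 and 3 (75.6 ± 16.4, SD, n = 3). Gimap8 (ENSMUSG00000064262, chr6:48647234-48660875, + strand) had 67.5, 57.8 and 79.5 FPKM (68.3 ± 10.8, SD, n = 3). Both were lowest in tumor 2 and, as deposited, highest in tumor 3. Gimap6 was above Gimap8 in 3 of 3 tumors, by 1.05 to 1.17 times, and the difference within a library was 7.29 ± 5.59 FPKM (SD, n = 3).

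Gimap7, whose human counterpart forms dimers on lipid droplets, and Gimap9 have single coding exons and are the closest relatives after Gimap3 and Gimap5. Gimap9 (ENSMUSG00000051124, chr6:48676129-48679114, + strand) had 39.5, 30.3 and 50.4 FPKM in tumors 1, 2 and 3 (40.1 ± 10.1, SD, n = 3). Gimap7 (ENSMUSG00000043931, chr6:48718621-48724636, + strand) had 28.4, 41.7 and 41.6 FPKM (37.2 ± 7.64, SD, n = 3). Their order changed between tumors as deposited. Within a library the ratio of Gimap7 to Gimap9 was 0.718, 1.38 and 0.824 for tumors 1, 2 and 3. With the length of the longest protein-coding transcript it was 1.11, 2.13 and 1.27, so that Gimap7 was the higher gene in each tumor.

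**Figure D1:**
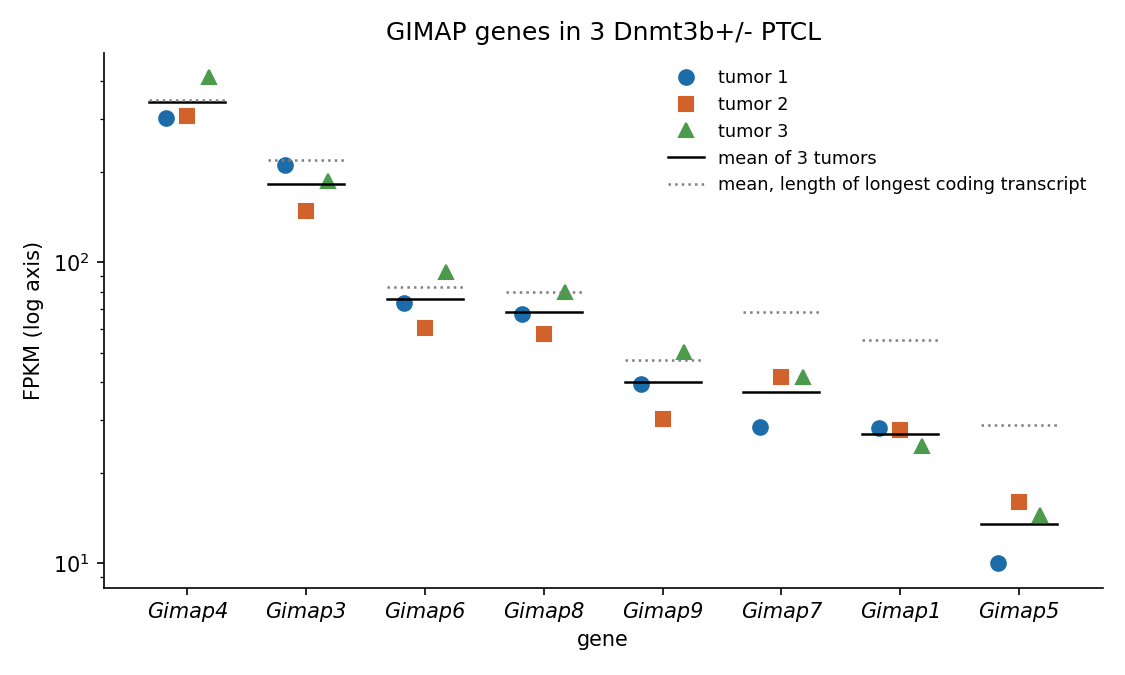
FPKM of the 8 GIMAP genes on a log axis, with a point for each of the 3 Dnmt3b+/- PTCL, a solid line for their mean, and a dotted line for the mean rescaled to the length of the longest protein-coding transcript. Gimap4 and Gimap3 stand above the other 6 genes, and the dotted lines of Gimap7, Gimap1 and Gimap5 lie 1.83 to 2.12 times above their solid lines.

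By mean FPKM the order was Gimap4, Gimap3, Gimap6, Gimap8, Gimap9, Gimap7, Gimap1 and Gimap5. Gimap4 exceeded Gimap3 by more than the spread, with 1.44, 2.07 and 2.21 times its FPKM in tumors 1, 2 and 3. Gimap3 had at least 2.00 times the FPKM of Gimap6 in each tumor. Gimap6 was above Gimap8 in each tumor, by 5.68, 2.68 and 13.5 FPKM in tumors 1, 2 and 3. The SD between tumors was 16.4 FPKM for Gimap6 and 10.8 FPKM for Gimap8. Gimap9 and Gimap7 did not differ beyond the spread, with a difference within a library of 2.87 ± 12.4 FPKM (SD, n = 3). Gimap7 had 1.01, 1.503 and 1.69 times the FPKM of Gimap1. Gimap1 in turn had at least 1.69 times the FPKM of Gimap5 in each tumor.

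The order of the middle genes depends on the length by which reads are divided. The deposited FPKM use all exons of all transcripts of a gene, including transcripts that keep introns. For Gimap5 this length is 4149 bases, against 1953 bases for its longest protein-coding transcript, and the lengths are 3073 and 1493 bases for Gimap1 and 2325 and 1269 bases for Gimap7. Divided by the longest protein-coding transcript, the mean of Gimap5 was 28.7 FPKM, that of Gimap1 55.2, that of Gimap7 68.2 and that of Gimap9 47.5. Gimap7 and Gimap1 then stood above Gimap9 in mean, Gimap7 was below Gimap1 in tumor 1, with 0.897 times its FPKM, and Gimap6 was below Gimap8 in tumor 2, with 0.983 times its FPKM. Gimap4 at 347, Gimap3 at 218, Gimap6 at 83.1 and Gimap8 at 79.9 FPKM kept the first 4 places in mean and Gimap5 the last, but in tumor 2 Gimap7, at 76.4 FPKM, stood above Gimap8 at 67.7 and Gimap6 at 66.6. All reads of a gene were kept in this calculation, also those of its other transcripts. Gimap6 has another coding transcript of 1594 bases, against 3179 for its longest, and divided by that length its mean was 166 FPKM.

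The joint share of Gimap4 and Gimap3 was similar in the 3 tumors, while shares of single members moved. Together they held 67.5% of the summed GIMAP FPKM in tumor 1, 66.0% of it in tumor 2 and 66.3% of it in tumor 3. With the coding length these shares were 62.4%, 59.2% and 60.9%. Between these genes the balance differed: the share of Gimap4 was 39.8%, 44.5% and 45.7%, and that of Gimap3 was 27.6%, 21.5% and 20.7%. Gimap8 held the steadiest share of any member, 8.89%, 8.39% and 8.81%. The least steady shares were those of Gimap5, 1.32%, 2.33% and 1.61%, and of Gimap7, 3.74%, 6.05% and 4.61%.

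Promoters are shown for the genes with the highest levels, Gimap4 and Gimap3, and for Gimap5, whose coding sequence is nearly that of Gimap3. RefSeq promoters (GRCm38.p6, 250 bases before to 50 after the start of the gene) were found for all 8 members, with 2 for Gimap8. They were searched on both strands for TGTGGT (RUNX), CCGGAAG (ETS), GTAAACA (forkhead) and CTTTGAT (TCF/LEF). Capitals mark a match. The Gimap4 window is chr6:48684328-48684627 on the + strand, the Gimap3 window is chr6:48770802-48771101 on the - strand, and the Gimap5 window is chr6:48745947-48746246 on the + strand.
Gimap4: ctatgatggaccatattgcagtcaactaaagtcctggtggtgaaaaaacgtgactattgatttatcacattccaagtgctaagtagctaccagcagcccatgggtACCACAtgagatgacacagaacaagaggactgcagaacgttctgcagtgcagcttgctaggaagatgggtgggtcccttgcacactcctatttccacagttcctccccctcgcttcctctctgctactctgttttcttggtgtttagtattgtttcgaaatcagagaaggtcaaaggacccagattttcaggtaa
Gimap3: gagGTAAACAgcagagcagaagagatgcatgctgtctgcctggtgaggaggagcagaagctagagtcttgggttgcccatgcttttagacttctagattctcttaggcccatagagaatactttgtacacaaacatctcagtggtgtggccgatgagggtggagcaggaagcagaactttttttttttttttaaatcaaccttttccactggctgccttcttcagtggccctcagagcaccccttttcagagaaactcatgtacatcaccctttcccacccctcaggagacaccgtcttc
Gimap5: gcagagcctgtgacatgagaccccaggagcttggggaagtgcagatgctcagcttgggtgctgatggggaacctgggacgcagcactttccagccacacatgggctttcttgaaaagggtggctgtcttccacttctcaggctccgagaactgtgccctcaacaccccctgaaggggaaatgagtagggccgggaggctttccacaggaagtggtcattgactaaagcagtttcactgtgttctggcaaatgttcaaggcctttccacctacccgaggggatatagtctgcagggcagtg
The RUNX letters occurred in the promoters of Gimap4, Gimap7 and Gimap1, in each on the opposite strand as ACCACA, and in 16.8% of all 32851 promoters. The forkhead letters occurred in the promoter of Gimap3 and in 3.65% of all promoters. Neither the ETS letters, found in 8.86% of all promoters, nor the TCF/LEF letters, found in 3.73%, occurred in a GIMAP promoter. No promoter held matches to more than 1 of these motifs, so none overlapped. A match describes letters in a window and not a bound site. The longest run of bases shared by the Gimap3 and Gimap5 promoters was 7. The 9 GIMAP promoters held 2 to 8 CpG, with a median of 4, while the median of all promoters was 7. Their methylation was not analysed here.

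None of the 8 GIMAP genes differed by 2-fold between the highest and the lowest tumor. Of all 11197 genes with a mean of at least 1 FPKM, 34.4% did, and of the 3432 genes with a mean of at least 10 FPKM, as all 8 members have, 27.7% did. The ratio of highest to lowest ran from 1.15 for Gimap1 to 1.67 for Gimap9 with a median of 1.44 in the family, against medians of 1.68 and 1.59 in these sets of genes. With median-of-ratios factors this contrast of medians nearly vanished, with a median of 1.60 in the family against 1.64 in all genes with a mean of at least 1 FPKM. Under that scaling no member and 32.5% of all genes differed by 2-fold. The medians were 1.39 against 1.79 at the same sum of FPKM and 1.49 against 1.97 relative to the CD3 chains. The coefficient of variation had a median of 19.4% in the family, against 26.8% and 24.1%. With 8 genes that share a locus, these counts are a description.

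Small as they were, most differences between tumors exceeded counting error. Over the 8 genes and all pairs of tumors, 21 of 24 exact 95% intervals of the ratio did not hold 1. The other 3 were Gimap4 and Gimap1 between tumors 1 and 2, and Gimap7 between tumors 2 and 3. With all counts divided by 2, as for mates counted separately and chosen after seeing the data, 20 of 24 intervals did not hold 1, since that of Gimap5 between tumors 2 and 3 then held it. The interval of highest to lowest tumor, a pair chosen by its values, was 1.54 to 1.81 for Gimap9, 1.48 to 1.73 for Gimap5 and 1.33 to 1.39 for Gimap4. These intervals compare libraries and hold no error of tissue sampling or library preparation.

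Genes of proteins linked to GIMAPs had a higher median ratio of highest to lowest tumor than the family. In this list of 12, 2 genes differed by at least 2-fold, against 34.4% of all genes, and the median ratio was 1.79, against 1.68 for all genes and 1.44 for the family. The survival gene Bcl2 had 55.7, 54.7 and 73.5 FPKM in tumors 1, 2 and 3. It was highest in tumor 3, as were Gimap4 and 15.7% of all genes. Mcl1, another survival gene, had 87.2, 44.7 and 56.0 FPKM, and Bcl2l1 had 5.22, 8.71 and 9.84 FPKM. Bcl2l1 was the lowest of these 3 survival genes in each tumor. Of the genes that promote cell death, Bax had 29.9, 29.7 and 56.2 FPKM, Bak1 21.6, 28.3 and 20.1, and Bcl2l11 13.7, 17.0 and 8.66. Bad was 1 of the 2 genes past 2-fold, with 3.78, 8.43 and 5.25 FPKM.

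Gabarapl2, the autophagy partner of Gimap6, had 20.4, 16.6 and 28.1 FPKM, with the same highest and lowest tumor as Gimap6 as deposited. Its relative Gabarapl1 had the largest ratio of the list, with 6.18, 11.4 and 2.03 FPKM, 5.62 with an exact 95% interval of 4.44 to 7.17. Gabarapl1 was lowest in tumor 3, where Gimap6 was highest. Relative to the CD3 chains, Gimap6 was highest in tumor 1. Of all genes with a mean of at least 1 FPKM, 15.7% were highest in tumor 3 as deposited. The lowest tumor was tumor 2 for 38.3% of them and tumor 3 for 37.4%. Gabarap had 40.2, 26.2 and 38.5 FPKM and Map1lc3b had 6.63, 8.23 and 7.95. Gsk3b, a kinase linked to Gimap5 in T cells, had 6.39, 4.60 and 5.35 FPKM, so that it was lowest in tumor 2, where Gimap5 was highest.

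Genes of T-cell quiescence and homing, the state in which GIMAPs are best known, varied far more than the family. Of 15 such genes, 10 differed by at least 2-fold, against 34.4% of all genes, and the median ratio was 3.23, against 1.68 for all genes and 1.44 in the family. The lowest tumor was tumor 2 for 14 of the 15 genes. It was tumor 2 for 4 of the 8 GIMAP genes, against 38.3% of all genes. Tumor 2 was also lowest for 7 of 8 B-cell genes and highest for all 8 pancreatic acinar genes. The part of other cells in the quiescence values was not tested. Il7r, the receptor of the survival cytokine IL-7, had 30.7, 0.641 and 64.5 FPKM for tumors 1, 2 and 3, a ratio of 101 (exact 95% interval 77.2 to 132). In tumor 2, where Il7r rested on 57 reads, the GIMAP genes summed to 689 FPKM, against 759 in tumor 1 and 901 in tumor 3. As deposited, Il7r and the GIMAP sum were thus both lowest in tumor 2 and highest in tumor 3. Tcf7 and Slfn2, among the genes of the list with high levels, had means of 156 and 97.6 FPKM. They differed by 1.41 and 1.17 times between tumors, so the list was not uniform.

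**Figure D2:**
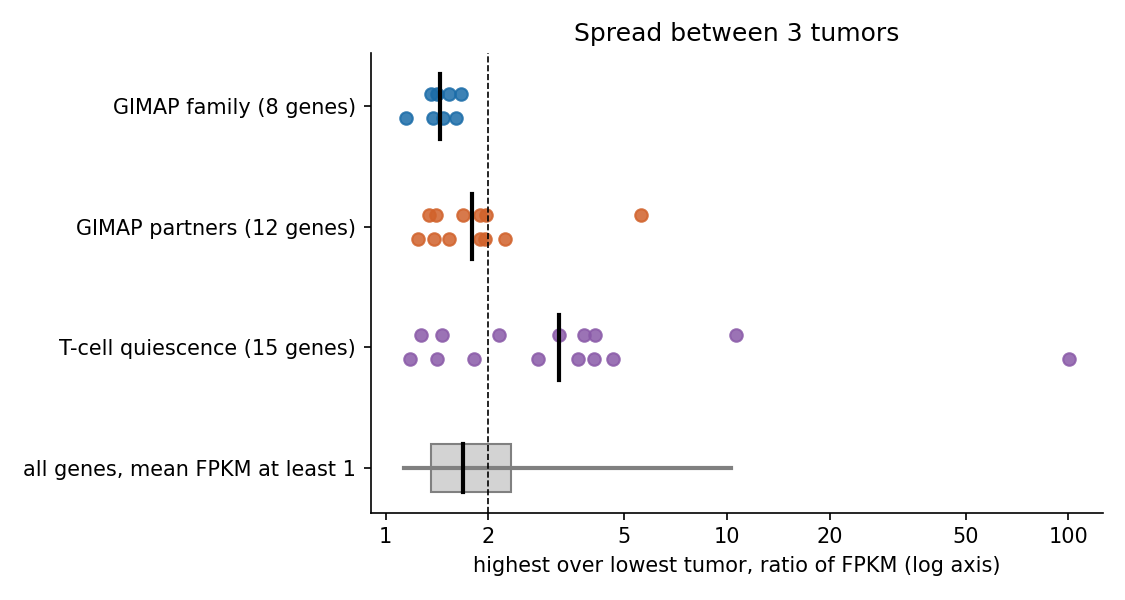
Ratio of the highest to the lowest tumor in FPKM, on a log axis, for each gene of the GIMAP family, of the GIMAP partners and of T-cell quiescence, with a black line at each median and a dashed line at 2. For all genes with a mean of at least 1 FPKM the box spans the 25th to 75th percentile and the line the 5th to 95th, and the 8 GIMAP genes lie between 1.15 and 1.67, left of the dashed line.

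The median of log2(FPKM over the gene's mean) shows the same contrast by tumor. In the family it was -0.03, -0.19 and 0.19 for tumors 1, 2 and 3. In the quiescence list it was 0.43, -1.11 and 0.18. Under each of the 3 other scalings tumor 2 stayed the lowest for at least 13 of the 15 quiescence genes.

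**Figure D3:**
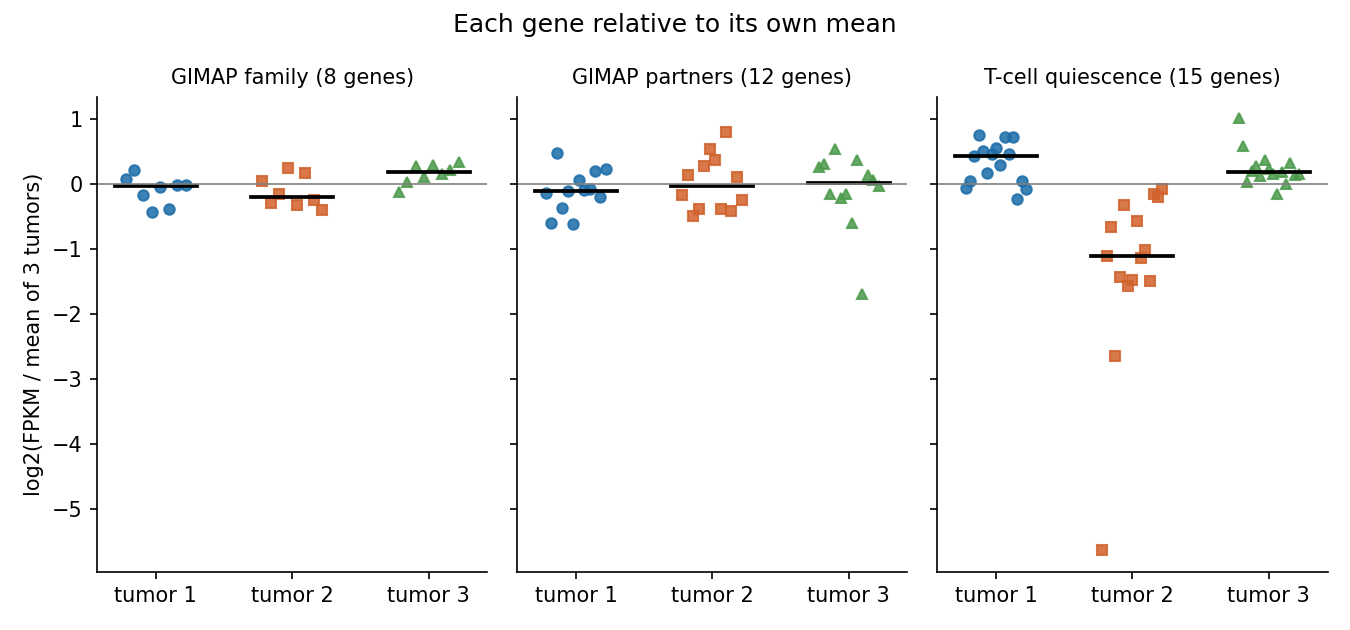
log2 of FPKM divided by the gene's mean over the 3 tumors, with a point for each gene and a black line for the median, for the GIMAP family, the GIMAP partners and T-cell quiescence. The GIMAP points stay near 0 in every tumor, while most quiescence genes lie below 0 in tumor 2, where their median was -1.11.

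Which tumor was highest differed within the family. As deposited, Gimap4, Gimap6, Gimap8 and Gimap9 were highest in tumor 3, Gimap5 and Gimap7 in tumor 2, and Gimap1 and Gimap3 in tumor 1. Tumor 3 was the highest for 15.7% of all genes with a mean of at least 1 FPKM, tumor 2 for 33.7% and tumor 1 for 50.6%. Tumor 2 was lowest for Gimap3, Gimap6, Gimap8 and Gimap9, tumor 1 for Gimap4, Gimap5 and Gimap7, and tumor 3 for Gimap1. Over all genes the shares of the lowest tumor were 38.3% for tumor 2, 24.3% for tumor 1 and 37.4% for tumor 3.

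These directions depend on how the libraries are scaled. As deposited, the median gene was lower by 0.18 in tumor 2 and by 0.24 in tumor 3 than in tumor 1 on the log2 scale. Relative to this median the summed GIMAP level was 0.04 higher in tumor 2 and 0.49 higher in tumor 3 than in tumor 1. Rescaled to the same sum of FPKM, tumor 1 was highest for 3 members, tumor 2 for 2 and tumor 3 for 3. Among all genes with a mean of at least 1 FPKM these shares were 60.5%, 30.7% and 8.74%. Median-of-ratios factors, which set the median gene equal, left 6 members highest in tumor 3 and none in tumor 1. Among all genes, at the same limit of mean FPKM, 26.2% were then highest in tumor 3 and 36.9% in tumor 1. Relative to the summed FPKM of the CD3 chains Cd3e, Cd3d, Cd3g and Cd247, which was 271, 339 and 372 in tumors 1, 2 and 3, 6 members were highest in tumor 1 and none in tumor 3. The shares of all genes with a mean of at least 1 FPKM were then 69.9% for tumor 1 and 5.66% for tumor 3. The summed GIMAP FPKM was 2.80, 2.03 and 2.42 times that of the CD3 chains. The highest tumor was the same under all these scalings for 1 gene, Gimap5, in tumor 2. The lowest tumor was the same for 6 genes, tumor 2 for Gimap3, Gimap6, Gimap8 and Gimap9 and tumor 1 for Gimap5 and Gimap7.

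**Figure D4:**
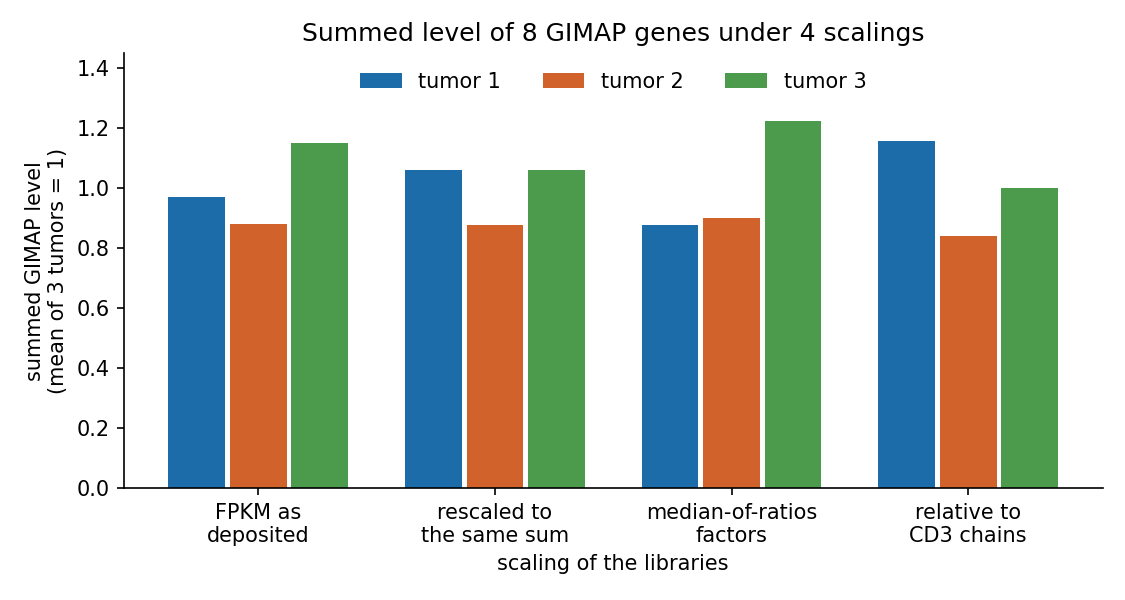
Summed level of the 8 GIMAP genes in each tumor, divided by the mean of the 3 tumors, under the deposited scaling and 3 others. Tumor 3 is the highest bar as deposited and with median-of-ratios factors, about level with tumor 1 at the same sum, and below tumor 1 relative to the CD3 chains, and the highest over the lowest bar runs from 1.21 to 1.39.

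Markers of other cells differed between the tumors much more than the GIMAP genes did, and their part in the GIMAP values was not tested. B cells also express GIMAPs, and all 8 B-cell genes differed by at least 2-fold, against 34.4% of all genes with a mean of at least 1 FPKM. The B-cell genes summed to 65.5, 51.3 and 125 FPKM in tumors 1, 2 and 3. The B-cell list was led by Cd79a, Cd79b and Cd22, and Ms4a1 had its largest ratio, 13.3. Cd22 differed from the rest, with 5.84, 36.5 and 13.9 FPKM, and without it the list summed to 59.7, 14.8 and 111 FPKM. Like Gimap6, Gimap8 and Gimap9, the 7 B-cell genes other than Cd22 were lowest in tumor 2 and highest in tumor 3. Endothelium is another place of GIMAP expression. Its 8 genes summed to 14.99, 15.7 and 5.42 FPKM, 2 of them had a mean of at least 1 FPKM and both of these differed by 2-fold. Pecam1, which leukocytes share, led them with 9.31 FPKM in mean, followed by Egfl7 at 1.12 and Cdh5 at 0.774, and Egfl7 had the largest ratio at a mean of at least 1 FPKM, 10.3. All 8 endothelial genes were lowest in tumor 3, where 4 GIMAP genes were highest as deposited. In tumor 3 Tek, Tie1 and Emcn rested on 4 reads each and Vwf on 5, so their order is uncertain. Tumor 3 was lowest for 37.4% and highest for 15.7% of all genes with a mean of at least 1 FPKM.

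Other lists differed in other directions than the family. Of all genes with a mean of at least 1 FPKM, 34.4% were past 2-fold. Macrophage genes (7 of 7 past 2-fold, led by Lyz2, C1qa and Cd68, with the largest ratio for C1qa) summed to 340, 115 and 34.7 FPKM. Erythroid genes (4 of the 4 with a mean of at least 1 FPKM past 2-fold, led by Hba-a1, Hbb-bs and Hbb-bt, with the largest ratio for Hba-a1) summed to 162, 30.2 and 4.69 FPKM. Neutrophil genes (2 of 2, led by S100a9, S100a8 and Ngp, with the largest ratio for S100a8) summed to 37.3, 1.44 and 16.1 FPKM. The sum of each of these lists was highest in tumor 1, where Gimap1 and Gimap3 were highest, but Cd68 was highest in tumor 2 (19.6, 51.2 and 9.27 FPKM) and Camp of the neutrophil list in tumor 3 (0.258, 0.0695 and 0.572 FPKM). NK-cell genes (3 of 3, led by Eomes, which T cells share, Klre1 and Klrb1c, with the largest ratio for Klre1) summed to 21.01, 77.7 and 48.6 FPKM, but to 20.8, 45.5 and 48.6 FPKM without Klre1. Pancreatic acinar genes (8 of 8, led by Ctrb1, Prss2 and Cela2a, with the largest ratio for Ctrb1) summed to 87.0, 440 and 0.657 FPKM. Fibroblast genes (4 of 4, led by Col1a1, Col3a1 and Col1a2, with the largest ratio for Col3a1) summed to 10.9, 42.2 and 0.368 FPKM. The sums of the pancreatic and fibroblast lists were highest in tumor 2, as Gimap5 and Gimap7 were, and that of the NK-cell list was so only with Klre1.

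Several defining markers had no read. The platelet genes Pf4 and Itga2b summed to 1.27, 2.16 and 0.194 FPKM, with values without a read set to 0. The other platelet genes, Gp9 and Ppbp, had no read in any tumor, which allows at most 0.180 and 0.146 FPKM, the FPKM of 3 reads in tumor 2. Ly6g of neutrophils had 1 read in tumor 1 and 0 in the other tumors. Ctrb1 and Cpa1 of the pancreas and Pdgfra and Pdpn of fibroblasts had 0 reads in tumor 3. In that tumor, with the lowest sums of the pancreatic and fibroblast lists, the GIMAP genes summed to 901 FPKM.

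Proliferation genes were ordered differently from the family. They summed to 270.2, 179 and 142 FPKM for tumors 1, 2 and 3. Of 10, 6 differed by at least 2-fold, against 34.4% of all genes with a mean of at least 1 FPKM. Pcna, Mki67 and Mcm5 led the list, and Birc5 had its largest ratio, 5.38. Of 10 genes, 9 were lowest in tumor 3, against 37.4% of all genes and 1 of the 8 GIMAP genes, Gimap1. Among 8 housekeeping genes, led by Eef1a1, B2m and Actb, 2 differed by 2-fold, against 34.4% of all genes. The housekeeping genes had a median ratio of 1.68 and the largest, 2.20, for Gapdh. As deposited, the GIMAP median was 1.44, and with median-of-ratios factors the medians were 1.60 for the GIMAP genes and 1.643 for the housekeeping genes.

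The genes on either side of the cluster had much lower levels than its members. Between 200 kb before Gimap8 and 200 kb after Gimap3 the table holds 31 genes, of which 23 are not members. Without the readthrough gene Gm28053, the 13 other protein-coding genes had a median of 1.69 FPKM in mean, against 54.2 FPKM for the 8 members. The gene with the highest level among them, Tmem176b, had 13.2, 4.96 and 3.49 FPKM. Its neighbor Tmem176a had 6.66, 1.91 and 1.91 FPKM, and their highest tumor was 3.77 and 3.49 times the lowest, a spread no GIMAP gene had. On the other side, AI854703, the closest protein-coding gene to Gimap8, had 1.70, 0.404 and 3.87 FPKM, and Lrrc61 had 4.11, 3.08 and 5.93. Like Gimap6, Gimap8 and Gimap9, these genes were lowest in tumor 2 and highest in tumor 3. Rarres2, Gm44965, Zfp775, Repin1 and Gm45021 had means of 2.43, 1.83, 1.69, 1.00 and 0.681 FPKM, and Sspo, Aoc1, Atp6v0e2 and 1600015I10Rik were below 0.1 FPKM in mean.

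**Figure D5:**
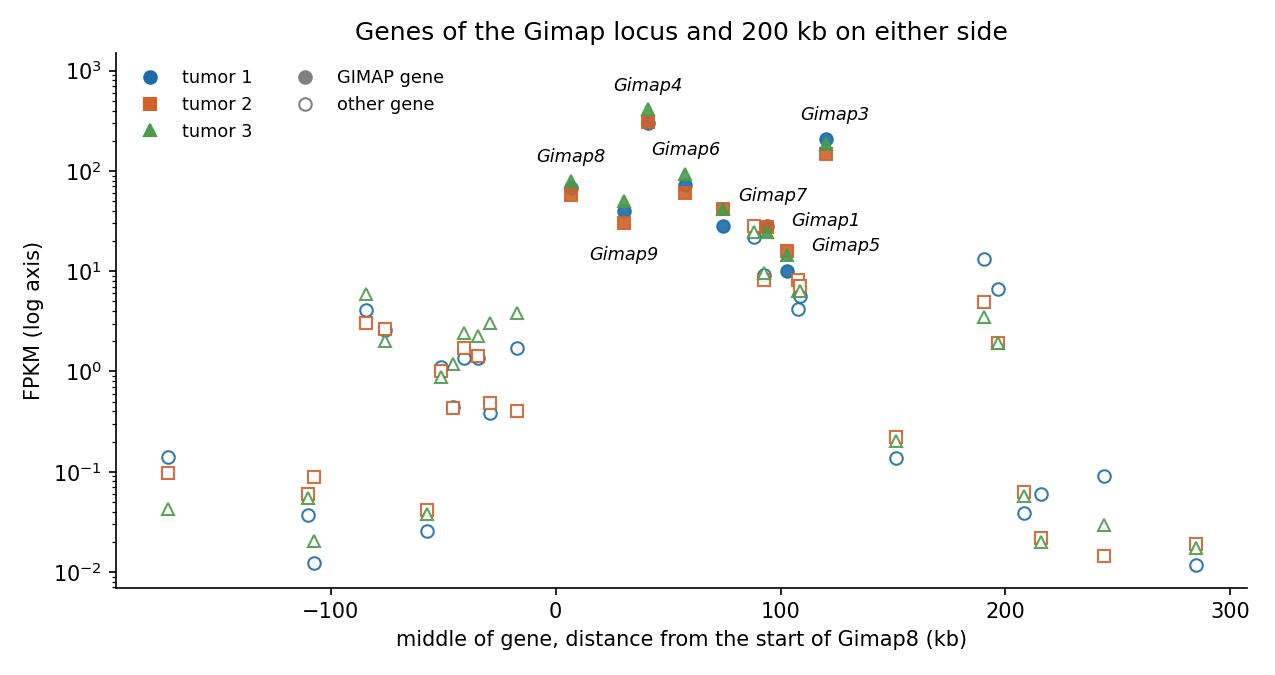
FPKM on a log axis of the 31 genes of the Gimap locus and its flanks, against the distance of the middle of each gene from the start of Gimap8 in kb, with a point for each of the 3 tumors. The 8 GIMAP genes (filled) reach a median of 54.2 FPKM in mean, while the genes on either side of the cluster (open) reach at most 13.2 FPKM in a tumor.

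Inside the cluster, Gm28053 joins Gimap7, Gimap1 and Gimap5 in the annotation and had 21.8, 28.2 and 24.5 FPKM. Of its 989 exon bases, 43.7% are also exon bases of these 3 members, 81 in Gimap7, 198 in Gimap1 and 153 in Gimap5. Reads on these bases cannot be assigned to either gene, and they cover 3.48% of the exon bases of Gimap7, 6.44% of Gimap1 and 3.69% of Gimap5. Gimap8, Gimap9, Gimap4 and Gimap6, the first 4 genes along the chromosome, were all highest in tumor 3 as deposited, but not relative to the CD3 chains, where each was highest in tumor 1, and for Gimap8 also not at the same sum. Gimap7 and Gimap5, which were lowest in tumor 1 under each scaling, lie on either side of Gimap1, which was lowest in tumor 3 as deposited and in tumor 1 with median-of-ratios factors.

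Genes whose pattern over the 3 tumors was most like that of the summed GIMAP FPKM were sought among 3424 other genes with a mean of at least 10 FPKM. The measure was the Euclidean distance of log2(FPKM over the gene's mean). The 5 closest were Fopnl (distance 0.028), H3f3a (0.032), Znrd1 (0.032), Ap1s1 (0.034) and Fam168b (0.036). H3f3a, a gene of histone H3.3, had 59.1, 55.1 and 72.3 FPKM. Within a distance of 0.1 lay 49 genes, or 1.43%, and the measure rests on 3 tumors.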

How the data were processed

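RNA-seq of 3 Dnmt3b+/- PTCL was analysed. The FPKM were made by the authors and deposited per tumor on a linear scale: after trimming, STAR placed the reads on mm10, and SeqMonk counted those of mapping quality 50 or higher over the exons of each gene. Tool versions are not given in the sources used here. Exon lengths from GENCODE M21 were matched to 99.6% of 34245 genes. A gene with 0 reads carries a value equal to 0.9 read, from which library depths and reads per gene were derived. Of the values, 92.0% were whole in each tumor, within 0.01 read plus 2e-06 of the value, as were those of the 8 GIMAP genes. This share also counts the values of 0.9 read, from which the depths were set, as whole. Genes without a read were 42.2%, 45.7% and 48.1% of genes in tumors 1, 2 and 3. FPKM are not counts, and no count model was fitted. Intervals are exact Poisson intervals (levels) and exact Clopper-Pearson intervals (ratios), at 95%. A symbol in several rows was taken from the row with the highest mean.

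The members and gene lists were chosen with earlier results of these data known. Named genes were all members, Dnmt3b, all partners, of every other list the 3 genes with the highest mean, the gene with the largest ratio at a mean of at least 1 FPKM and markers without a read, all protein-coding genes within 200 kb of the cluster, and the 5 nearest genes by pattern. Some genes taken by this rule are not reported here. Other settings were 3 library scalings, ratio thresholds of 1.5 and 3, 1 FPKM added, other FPKM limits, repeated symbols summed, each tumor left out, and, chosen after seeing the data, the length of the longest protein-coding transcript. Steps were tested on simulated data. Python 3.11.15, pandas 2.3.3, NumPy 2.4.6, SciPy 1.17.1, Biopython 1.88 and matplotlib 3.10.9 were used.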

Additional observations from a re-analysis of the deposited data

How the results depend on the processing

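The mean of the summed GIMAP FPKM was 783 as deposited, 3794 when each tumor was rescaled to sum to 1000000, which changes its unit, and 927 with the length of the longest protein-coding transcript, chosen after seeing the data. Without any 1 tumor it was 724 to 830. The highest over the lowest tumor of this sum was 1.31 as deposited, 1.21 at the same sum, 1.39 with median-of-ratios factors, 1.38 relative to the CD3 chains, 1.27 with the coding length, and 1.10 to 1.31 without a tumor. No member reached a ratio of 2 under any scaling, and a ratio of 1.5 was reached by 3 members as deposited, 2 at the same sum, 5 with median-of-ratios factors and 4 relative to the CD3 chains. In all genes with a mean of at least 1 FPKM the median ratio was 1.68, 1.79, 1.64 and 1.97, in the same order. Each of these medians is above 1.5. The number of members highest in tumor 1 was 2 as deposited, 0 with median-of-ratios factors, 6 relative to the CD3 chains, and 2 to 5 without another tumor, and the number highest in tumor 3 was 4 as deposited and 0 relative to the CD3 chains. Highest in tumor 1 were 50.6% of all genes as deposited, 36.9% with median-of-ratios factors and 69.9% relative to the CD3 chains. Highest in tumor 3 were 15.7% as deposited and 5.66% relative to the CD3 chains. These shares cover genes with a mean of at least 1 FPKM. The cause was not tested. All 8 members were above 10 FPKM in every tumor. Single means moved by less than 1 SD for 8 of 8 members with median-of-ratios factors, relative to the CD3 chains, with repeated symbols summed and without any tumor, for 3 of 8 with the coding length and for 0 of 8 at the same sum. The percent of all genes past a ratio of 2 was 34.4 as deposited and 27.7 to 48.1 under other filters and scalings. No paired analysis was possible because the only group with values is a group of 3 tumors, and no result comes from a test. Depth limited markers near 0 reads and not the GIMAP genes, which had at least 943 reads each.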
